A study of Mus musculus with 6 samples.

Results

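Splicing efficiency of single introns was described here in mouse embryonic stem cells that had received a control siRNA, from the introns listed for both of their total RNA libraries. An intron was taken once per chromosome, strand, start and end, in positions of GRCm39 (the build that the submitters' processing notes name). Library 1 listed 79975 introns and library 2 listed 73923, and 72487 introns in 10297 genes were listed in both, of 85015 introns listed in any total RNA library of the series. The cells were of the E14 line on a 129/Ola background, grown with serum and leukemia inhibitory factor, transfected with control siRNA and Lipofectamine 2000, and harvested 24 hours later. Total RNA was sequenced after ribosomal RNA was depleted, and a single Nanopore cDNA library of control cells gave the polyadenylated RNA. No untransfected cells were among the samples, and the labels do not say whether libraries 1 and 2 came from separate cultures. The label of the long-read control library names a Son knockdown RNA as its starting material, so how it relates to the total RNA controls is unclear.

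Splicing removes introns from the primary transcript and joins the exons, mostly while the RNA is still being made and partly after it has been released. Total RNA therefore holds both finished messages and RNA still in process, while polyadenylated RNA is mostly finished. Embryonic stem cells keep a pluripotent state through transcription factors such as Pou5f1 and Nanog, and many genes of the splicing machinery itself have introns that are known to be kept in part of their transcripts.

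A read that crosses an exon-intron junction is either split, joining both exons, or unsplit, running from exon into intron. Splicing efficiency is the number of split reads divided by all reads at both junctions of an intron. It runs from 0 to 1. A value says which share of the reads was joined and not how fast an intron is removed. Split reads at the 5′ side numbered 16012286 in library 1 and 10640247 in library 2, and the median intron had 205 and 140 junction reads, with both junctions summed. The long-read library held 3080426 reads. All 11 stem cell markers looked for had long reads, 30262 in sum, led by Dppa5a with 19555 and Pou5f1 with 4180. Of 19 markers of other cell types in the table, 10 were at 0, among them Gata6, Sox17 and Cdx2, and the sum of all 19 was 105 reads. The highest of the 19 were Pecam1 with 36 reads and Elf5 with 30, close to Klf4, the lowest stem cell marker, with 35. For scale, 48193 of all 116873 transcripts had a read, a count of transcripts and not of genes, so a count of 0 was common.

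Most listed introns had a splicing efficiency of 0.9 or above, 69.5% in library 1 and 65.2% in library 2. Mean splicing efficiency over introns was 0.898 in library 1 and 0.888 in library 2 (0.893 ± 0.0071, SD, n = 2), and the medians were 0.941 and 0.933 (0.937 ± 0.0055, SD, n = 2). At least 0.95 was reached by 44.0% and 40.2% of introns, and values under 0.5 were found for 2.32% and 2.72%. A tail of poorly spliced introns thus lay below a mass of introns close to 1. In both libraries, 1430 introns in 1078 genes were under 0.5, 312 had no split read at all and 865 had no unsplit read. The plot of the distribution shows that the libraries differed most in the top class, which held fewer introns in library 2.

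**Figure D1:**
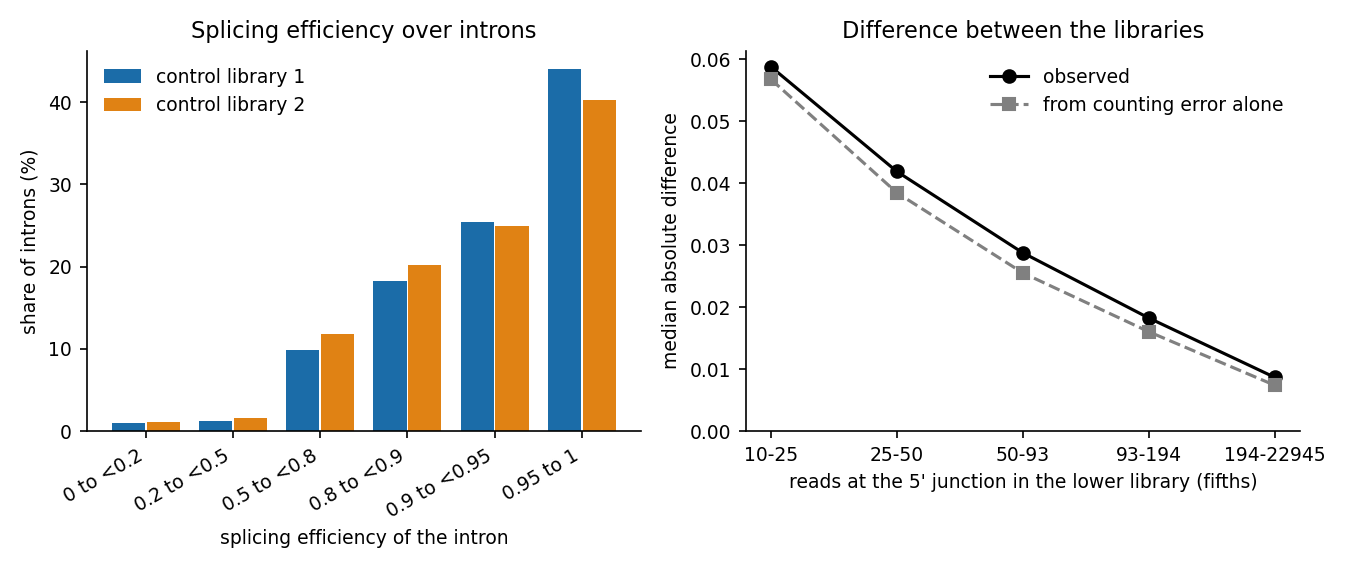
The left panel gives the share of 72487 introns in each class of splicing efficiency, with a bar per control library; the top class held 44.0% and 40.2%. The right panel gives the median absolute difference between the libraries, at 5′ junctions, in quintiles of introns by reads, beside the difference that counting error alone would give; both fell from about 0.0588 and 0.0568 in the shallowest quintile to 0.0087 and 0.0074 in the deepest.

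The libraries gave similar values intron by intron. Across the 72487 introns, Pearson's r was 0.911 and Spearman's correlation 0.796. These are descriptions across introns, which share their library and its depth and are not independent replicates. The median absolute difference was 0.0216, and 58.4% of introns were lower in library 2 against 39.8% lower in library 1. At 5′ junctions with 10 to 25 reads in the shallower library, the median difference was 0.0588 where counting error alone gives 0.0568. At junctions with 194 reads or more it was 0.0087 against 0.0074. Differences of 0.3 or more were found for 213 introns. With 1 group of 2 libraries no test between groups is possible, and an exact two-sided sign-flip test over 2 libraries cannot go below p = 0.5, so the values that follow are descriptions.

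Introns whose values differed most between the libraries were in Egr1, Celf5 and Dgkz, taken among introns with at least 200 reads in both. The only listed intron of Egr1, an immediate early transcription factor gene induced by growth signals, had 162 split and 61 unsplit reads in library 1 and 120 and 128 in library 2. Its splicing efficiency was 0.726 and 0.484 (chromosome 18, 34994840 to 34995517). An 84-nt coding intron of Celf5, an RNA-binding protein gene, had 0.553 and 0.332, and a 90-nt coding intron of Dgkz, a diacylglycerol kinase gene, had 0.805 and 0.589. All of these introns were lower in library 2, the library of fewer reads.

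The kind of RNA separated introns more than any other property looked at. Introns of protein-coding genes had a mean of 0.902 and 0.892 in libraries 1 and 2 (71617 introns). Introns of long intergenic noncoding RNA (lincRNA) genes had 0.551 and 0.552 (187 introns). Introns of genes of the type processed transcript had 0.670 and 0.664 (166 introns), and introns of antisense genes had 0.133 and 0.128 (236 introns). The order was the same in both libraries, and the gaps between these classes were many times the gap between the libraries.

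The antisense class lay over other genes almost by definition. Of its 236 introns, 207 (87.7%) overlapped a gene on the opposite strand, against 31 of 187 lincRNA introns (16.6%) and 7.22% of protein-coding ones. No split read was found in either library for 118 antisense introns, 14 lincRNA introns and 132 protein-coding introns. Whether strand was used in counting is not given in the sources used here, and without it an unsplit read of the opposite gene cannot be told apart from one of the intron. Introns without an exon on the opposite strand had antisense means of 0.204 and 0.207 (84 introns), against 0.094 and 0.085 for the 152 antisense introns with one. An intron without such an exon can still lie within a gene on the opposite strand. As 207 antisense introns overlapped a gene and only 152 an exon, many of the 84 still lay within an opposite gene. Without such an exon, lincRNA means were 0.568 and 0.572 (169 introns) and protein-coding means were 0.904 and 0.894 (69011 introns). In protein-coding genes, the 2606 introns that did have such an exon had 0.851 and 0.838.

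Within transcripts, coding introns were spliced best. Introns between coding exons had a mean of 0.909 and 0.899 (67467 introns), introns in 5′ untranslated regions 0.845 and 0.833 (2141), and introns in 3′ untranslated regions 0.764 and 0.749 (646). Introns of transcript models without a reading frame had 0.619 and 0.606 (1906). The share under 0.5 followed the same order. It was 1.26% and 1.62% for coding introns, 13.8% and 15.0% in 3′ untranslated regions, and 29.1% and 29.9% in models without a reading frame. An intron's region was taken from the transcript model under which it was listed, which need not be the main model of its gene.

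Position along the transcript showed a lower mean at both ends. Introns numbered 1 had a mean of 0.838 and 0.826 (5672 introns), those numbered 2 had 0.878 and 0.869, and those numbered 12 or more had 0.915 and 0.904 (22972). Introns that came last in every listed transcript had 0.838 and 0.827 (7087), against 0.904 and 0.894 for the others. The medians differed far less, at 0.927 and 0.915 for intron 1 and 0.946 and 0.938 for intron 12 or later. The low mean at the ends thus came with a larger share of poorly spliced introns: 8.49% and 9.09% of introns that were first in every listed transcript were under 0.5, against 1.85% and 2.23% of the others. In protein-coding genes the shares were 4.88% and 5.64% against 1.58% and 1.95%, and the means of first introns 0.867 and 0.854.

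Inside single genes the first intron was not generally the worst. In 3445 genes with a first intron and at least 2 later ones, the first intron minus the mean of the others had a median of 0.010 in both libraries, and the first was higher in 57.4% and 55.7% of genes. The median was 0.0253 at 5′ junctions alone and 0.0206 in introns with similar split reads at both ends. The mean of the same difference was −0.0173 and −0.0188. The median and the mean thus differ in sign. In protein-coding genes the gap also differed by length. In the quintile of shortest introns, first introns had a median of 0.909 and 0.893 against 0.947 and 0.938 for later introns. In the quintile of longest introns the medians were 0.941 and 0.933 against 0.934 and 0.929, while the means went the other way, 0.890 and 0.879 against 0.9001 and 0.891. For last introns (5014 genes) the median difference was −0.0014 and −0.0011, close to 0, and the mean −0.0255 and −0.0263. The median turned to 0.0117 at 5′ junctions alone.

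**Figure D2:**
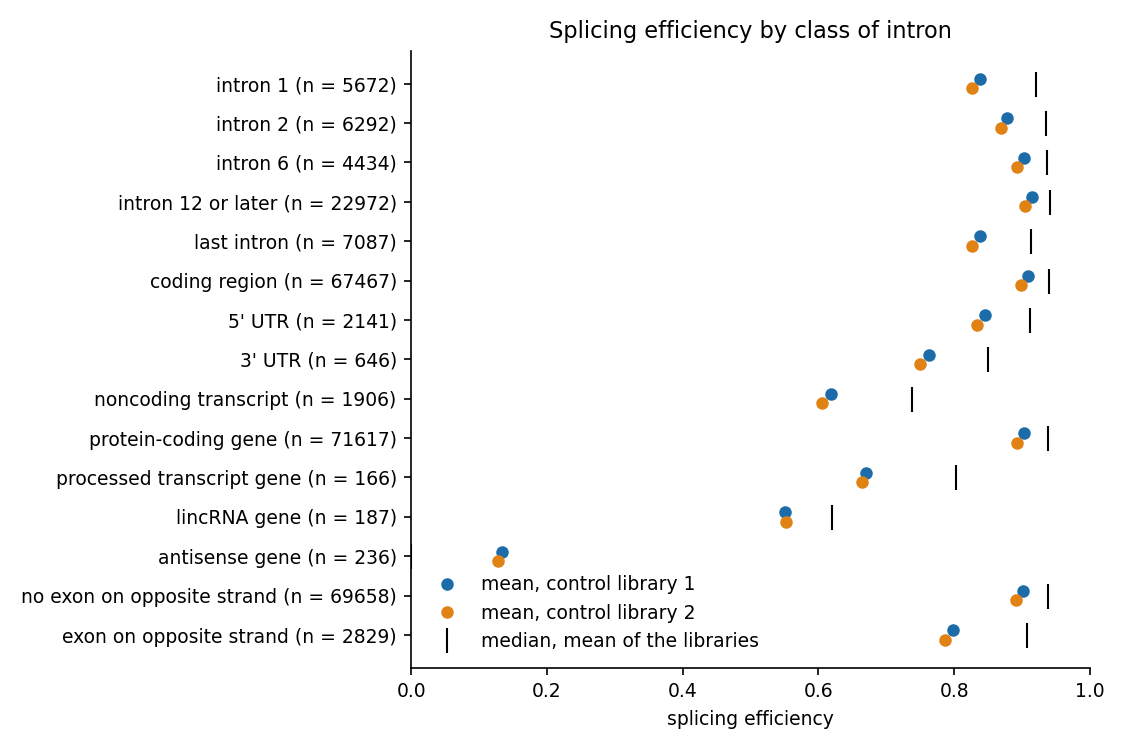
Mean splicing efficiency of introns by position, region of the transcript, type of gene and overlap with an exon on the opposite strand; each circle is a control library, each bar the median (mean of the libraries), and n is the number of introns. Antisense genes (0.133 and 0.128) and models without a reading frame (0.619 and 0.606) lie far below coding introns (0.909 and 0.899), and at intron 1 the mean lies well under the median.

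Mean splicing efficiency changed little with intron length when both junctions were counted. Means over quintiles of introns by length ran from 0.893 to 0.902 in library 1 and from 0.884 to 0.892 in library 2. The longest minus the shortest quintile was −0.0040 ± 0.0021 (SD, n = 2), and it was −0.0193 when only 5′ junctions were counted, turned to 0.0053 when only 3′ junctions were counted and turned to 0.0018 in introns with similar split reads at both junctions. The share of introns at 0.95 or above was 47.0% and 42.4% in the shortest and 40.4% and 37.2% in the longest quintile. The 1071 introns of up to 80 nt, near the shortest that mammalian cells are known to splice well, were lower, at 0.878 and 0.861. The last base of the upstream exon came with small gaps. Where the upstream exon ended in G, as it did for 58650 of 72160 introns matched to a transcript sequence, the mean was 0.899 and 0.888, and where it ended in A, C or T the means were 0.896 to 0.897 in library 1 and 0.887 in library 2. From the lowest to the highest quintile of exon GC content, the mean was 0.896 and 0.887 against 0.896 and 0.884 with both junctions counted. The highest minus the lowest quintile was 0.0130 at 5′ junctions alone and −0.0120 at 3′ junctions alone, so the single ends differed in opposite directions.

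The ends of very long introns differed from each other. In the 233 introns of over 50000 nt, 12.7% of reads at 5′ junctions were unsplit in library 1 and 13.8% in library 2. At their 3′ junctions the shares were 4.51% and 4.80%. Over all introns the shares at both ends were alike, 5.27% and 5.19% in library 1 and 6.09% and 6.04% in library 2. Between 2001 and 20000 nt the 5′ end was higher by 0.470 to 0.628 percentage points in library 1, and from 20001 to 50000 nt the shares were 7.73% and 5.87%. In the shortest introns, up to 80 nt, the order was the reverse, 6.67% at 5′ and 7.56% at 3′ ends.

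A split read that joins another exon is counted at only 1 of the ends, so the split reads of both ends were compared as well. In 65377 introns (90.2%) the lower of the 2 split counts was at least 0.8 of the higher in both libraries. Among these, introns of over 50000 nt still had 8.16% unsplit reads at 5′ and 4.24% at 3′ junctions in library 1 (182 introns), and 9.20% and 4.38% in library 2. A first intron of Jarid2, a partner of Polycomb repressive complex 2, chosen after its values were seen, shows the other kind. It spans 64361 nt (chromosome 13, 44912495 to 44976855), and library 1 had 3 split reads at its 5′ end and 911 at its 3′ end, with 133 and 12 unsplit reads. Without the 5 introns that held the most unsplit 5′ reads, the shares over 50000 nt were 10.4% and 4.59% in library 1 and 11.6% and 4.79% in library 2.

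**Figure D3:**
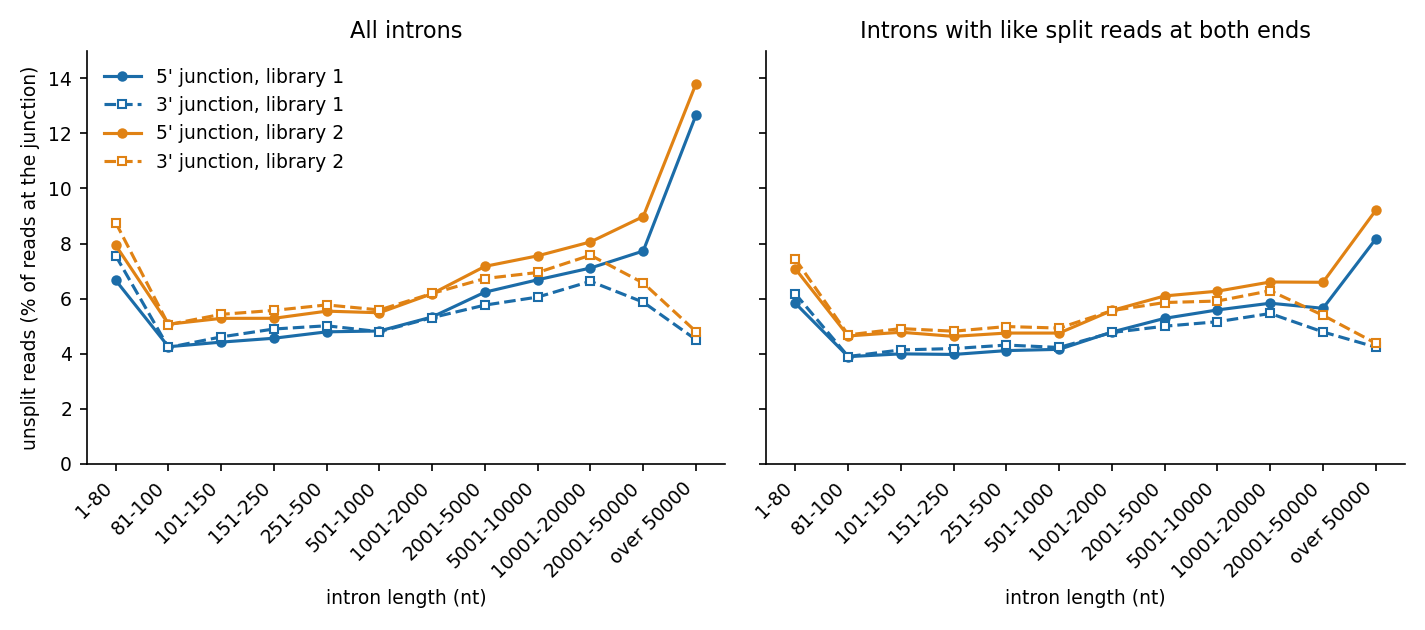
Unsplit reads as a share of all reads at 5′ junctions (filled circles) and 3′ junctions (open squares), by intron length, for each control library; the right panel holds introns with similar split reads at both ends. The ends part above 20000 nt and reach 12.7% and 4.51% in library 1 over all introns of over 50000 nt, and 8.16% and 4.24% in the right panel.

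Poorly spliced introns were a mixed class. Of the 1430 introns under 0.5 in both libraries, 474 (33.1%) overlapped a gene on the opposite strand, against 7.59% of all introns, and 74.0% had dissimilar split reads at their ends, against 9.81% of all. They were first introns in 27.8% and last introns in 31.7% of cases, where all introns were first in 7.13% and last in 9.78%. Only 46.5% were coding, against 93.1%. Protein-coding, without a gene opposite and with similar split reads at both ends were 253 of them. They were also shallower, with a median of 75 junction reads in library 1 against 205 over all introns.

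The introns named next are the lowest among those with at least 200 junction reads and 20 split reads in both libraries, at most 1 per gene, and those farthest below the other introns of their gene. The first 2 were antisense RNAs. An intron of Gm17232, which runs against the threonine dehydrogenase gene Tdh, had 72 split and 2997 unsplit reads in library 1 and 42 and 2160 in library 2, and 2921 and 2098 of the unsplit reads lay at its 5′ end. An intron of Rab10os, opposite the GTPase gene Rab10, had 34 and 812, and 30 and 529. An intron of Ulk4 that overlaps an exon of Ctnnb1 (β-catenin) on the other strand had no split read in either library and 918 and 619 unsplit ones, while the median of the other Ulk4 introns was 0.956 and 0.909. In the first intron of R74862, opposite the tetraspanin gene Cd81, the values were 0.108 and 0.124. No split read among 918 reads allows a share of up to 0.327% (3 counts). The part of the opposite genes in these values was not tested.

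The low introns of protein-coding genes without a gene opposite fell into several kinds by their split reads at each end and those of their neighbours. The sequences that follow are the annotated exon-exon joints of these introns, 15 bases of exon on each side. Split reads counted at only 1 end of an intron join another exon and do not cross its joint. Capitals mark the last 3 bases of the upstream exon and the first base of the next, and the joints of the third Pou5f1 intron and the eighth Eif4a1 intron, at 0.993 and 0.989 and at 0.998 and 0.997, are given beside them for comparison. They were read from GENCODE M21 transcripts by transcript and intron number.
Srsf11, 466 nt: catgaaaattaaCTGTtcttttccctggtt
Mtf2, 437 nt: gatatttttgaaATGGgttagacatatccc
Stx16, 148 nt: cgtagcattgctGCGGagtgtgatacagaa
Etnk1, 12950 nt: gaggtgaccctgCAGCtgttcacagatggg
Tuba1b, 129 nt: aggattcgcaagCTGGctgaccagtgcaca
Msh6, 93 nt: attacagctattTCGGgaagtttgtctggc
Ftl1, 251 nt: cgcgcggaccctCATCtctgtgacttcctg
Rbck1, 84 nt: ccggagtcaccaCCGGtgggctggcagtgc
Safb2, 80 nt: atctctgtggagAAGGccaagaatgaaccc
Pou5f1, 442 nt: gagaaccttcagGAGAtatgcaaatcggag
Eif4a1, 84 nt: actgtttctgccATGCacggagatatggac
Over all 72160 matched introns the upstream exon ended in AG for 41463, and the mean was 0.898 and 0.889 with AG and 0.898 and 0.888 without it.

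A first kind had split reads mainly at 1 end. In Srsf11, which codes for a serine- and arginine-rich splicing factor, the intron spans 466 nt (chromosome 3, 157729869 to 157730334, minus strand). It was matched to a retained-intron model without a reading frame, which held 41 of the gene's 459 long reads. The intron had 32 split and 310 unsplit reads in library 1 and 24 and 228 in library 2, a splicing efficiency of 0.094 and 0.095. Split reads numbered 4 at its 5′ end and 28 at its 3′ end in library 1 and 2 and 22 in library 2, where the median 5′ end of the gene's other listed introns had 451 and 337. The whole gene was at 0.905 and 0.902. A 437-nt first intron of Mtf2, a Polycomb protein gene, likewise in a model without a reading frame, had 0.109 and 0.114 (chromosome 5, 108226295 to 108226731), with 8 split reads at its 5′ end and 26 at its 3′ end in library 1 and 4 and 24 in library 2. In Sirt1, a deacetylase gene, a 473-nt intron of a 3′ untranslated region (chromosome 10, 63161966 to 63162438) had 0.317 and 0.188, with 9 split reads at its 5′ end and 157 at its 3′ end in library 1 and 5 and 69 in library 2.

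The first coding intron of Stx16, a syntaxin of vesicle fusion (chromosome 2, 173918983 to 173919130), had 42 and 43 split reads at its 5′ end and none at its 3′ end, and values of 0.136 and 0.159. The first intron of Klhl26, a ubiquitin ligase adaptor gene (chromosome 8, 70908299 to 70928456), had 12 split reads at its 5′ end and 64 at its 3′ end in library 1, and values of 0.190 and 0.110. The first intron of Deaf1, a transcription factor gene, had 44 and 12 in library 1, and values of 0.189 and 0.165.

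A second kind had few split reads at both ends beside its neighbours. The first intron of Etnk1, an ethanolamine kinase gene (chromosome 6, 143113363 to 143126312), had 0.173 and 0.199. It had 23 and 24 split reads at its ends in library 1, where the other listed introns had a median of 583 at the 5′ end, and 209 of its 224 unsplit reads lay at the 5′ end. In Zmynd8, a chromatin reader gene, a 5072-nt coding intron (chromosome 2, 165657390 to 165662461) had 20 and 22 split reads at its ends in library 1, 245 of its 278 unsplit reads lay at the 3′ end, and its values were 0.131 and 0.152. The median of the other Zmynd8 introns was 81 split reads at the 5′ end. In Tmem245, a membrane protein gene, a 106-nt intron of a model without a reading frame had 1 split read among 226 in library 1 and 4 among 208 in library 2. A protein-coding model held 913 of the gene's 918 long reads.

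Split reads were also few at both ends in introns of 2 genes that were otherwise well spliced. Tuba1b, an α-tubulin gene with 6366 long reads, had a gene value of 0.990 and 0.992. Its 129-nt intron (chromosome 15, 98830444 to 98830572) had 232 split and 197 unsplit reads in library 1 and 140 and 106 in library 2, values of 0.541 and 0.569. Its 116 split reads at the 5′ end were 0.888% of the 13070 at the other listed intron. Reads of close tubulin copies can be shared among them, so this value is uncertain. The 93-nt ninth intron of Msh6, a DNA mismatch repair gene, had 0.540 and 0.492 with 106 and 105 split reads at its ends in library 1 against a median of 823.5 at the 5′ ends of its neighbours. Both introns were picked out after their values were seen, among introns with similar reads at both ends.

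A further kind had as many split reads as its neighbours and was low all the same. The 84-nt coding intron of Rbck1, a ubiquitin ligase subunit gene, had 242 split and 147 unsplit reads in library 1 and 168 and 144 in library 2, values of 0.622 and 0.538. Its split reads at the 5′ end were 91.7% and 88.8% of the median of its neighbours. The 80-nt intron of Safb2, a scaffold attachment factor gene, had 0.624 and 0.635, with 68 and 79 split reads against 73.5 and 52.5 at its neighbours. The third intron of Bora, a mitotic kinase activator gene, had 0.604 and 0.641, with 87.7% and 107% of its neighbours' split reads. Unsplit reads were similar in number at both ends. In Rbck1, 69 and 78 unsplit reads lay at the 5′ and 3′ end in library 1.

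These introns were found in a set of 1248 introns chosen for similar split and similar unsplit reads at both ends, after values had been seen. The 44 of them under 0.8 in both libraries had a median length of 123 nt, against 684.5 nt for the 550 at 0.95 or above. Up to 150 nt long were 54.5% and 25.5%, and last in their transcript 18.2% and 6.36%. Exon GC content was alike, with medians of 49.6% and 50.3%. These shares describe introns selected by their own reads and carry no test.

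Ftl1, the ferritin light chain gene, was chosen after its values were seen. Its single listed intron (251 nt, chromosome 7, 45107708 to 45107958) had 182 split and 852 unsplit reads in library 1 and 144 and 803 in library 2, values of 0.176 and 0.152. The unsplit reads were even over its ends, 429 and 423 in library 1. The gene has a near-identical copy, Ftl1-ps1, whose main transcript model shares 25-base words with Ftl1 transcripts over 96.6% of its length. The copy held 22694 long reads and Ftl1 itself 1520, and how the authors' alignment split reads between the copies is not given in the sources used here, so the Ftl1 value is uncertain.

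Among genes with at least 5 listed introns, single introns rarely fell far from the rest. Of 24299 introns with at least 200 reads in 3532 genes, 134 (0.551%) in 116 genes were at least 0.2 below the median of their gene's other introns in both libraries, and 52 were at least 0.2 above. The low ones were last introns in 26.1% of cases against 6.58% of all, first introns in 20.1% against 4.58%, and coding in 60.4% against 96.0%. For the variance, introns of protein-coding genes with at least 100 reads in both libraries were taken, at least 2 per gene (42303 introns, 5718 genes). Differences between genes made up 36.6% of the variance of splicing efficiency in library 1 and in library 2. The rest lay within genes and includes counting error.

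Summed over the introns of a gene, 8600 genes had at least 100 reads in both libraries. Their median splicing efficiency was 0.936 and 0.928 (0.932 ± 0.0061, SD, n = 2), and 8.73% and 10.4% were under 0.8. Pearson's r between the libraries was 0.980 across genes, which share their libraries and depth.

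The lowest genes with at least 4 listed introns and 1000 reads in both libraries were Tti2, Sfi1, Acadvl, Pvt1, Ccdc66, Map3k12, Celf5, Jag2, Tmc8 and Lncenc1. Tti2, which codes for a cochaperone of phosphatidylinositol kinase-related kinases, had 310 split and 1333 unsplit reads in library 1 and 226 and 990 in library 2, values of 0.189 and 0.186. Of its unsplit reads, 1009 and 758 lay at the 3′ end of its sixth intron, which overlaps an exon of Mak16 on the opposite strand, and its other introns ran from 0.299 to 0.768 in library 1. Acadvl, the very-long-chain acyl-CoA dehydrogenase gene of fatty acid oxidation, had 0.385 and 0.394, and 7 of its 14 introns overlapped an exon of Dvl2 on the opposite strand. Its 7 other introns ran from 0.089 to 0.838 in library 1. In both genes the part of the opposite gene was not tested.

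Among the other genes of the 10, Jag2, Celf5, Pvt1 and Lncenc1 had no intron over an exon of the opposite strand. Such introns were 3 of 16 in Ccdc66, 2 of 14 in Map3k12 and 3 of 12 in Tmc8, against 3.90% of all introns. Their part in the gene values was not tested. Sfi1, a centrosome protein gene with 31 introns in its longest listed model, had 1058 split and 1621 unsplit reads in library 1 and 780 and 1623 in library 2, values of 0.395 and 0.325. Its 18 listed introns, 1 of them over such an exon, ran from 0.113 to 0.928 in library 1. Jag2, a Notch ligand gene, had 0.665 and 0.569 over 13 introns, and Celf5 had 0.648 and 0.580 over 8 introns. Both were lower in library 2. Ccdc66, a centriolar satellite protein gene, had 0.515 and 0.459, Map3k12, a stress kinase gene, 0.550 and 0.529, and Tmc8, a transmembrane channel-like gene, 0.673 and 0.590. The long noncoding RNAs Pvt1 (0.390 and 0.397, 8 introns) and Lncenc1 (0.645 and 0.638, 6 introns), the second of which is known from pluripotent cells, differed little between libraries.

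At the top stood Sycp1, Eif3i, Sdhb, Krt17 and Sparc. Sycp1, which codes for a protein of the meiotic synaptonemal complex, had 5 and 2 unsplit reads among 2259 and 1440, with values of 0.998 and 0.999. Eif3i, a translation initiation factor subunit, had 0.996 and 0.997, and Sdhb, a subunit of succinate dehydrogenase, had 0.996 and 0.996. Krt17, a keratin gene, had 0.995 and 0.997, and Sparc, a matrix protein gene, had 0.996 and 0.996. Few long reads fell on Sycp1 (4 reads) while Eif3i had 840, so a high value was found at very different levels of polyadenylated RNA.

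Gene groups differed in a graded way. Ribosomal protein genes had a median of 0.987 in both libraries (63 genes), glycolysis enzymes 0.984 and 0.982 (15 genes), and translation factors 0.977 and 0.973 (19 genes). All of these lie above the median of all genes, 0.936 and 0.928. Pluripotency genes had 0.952 and 0.946 (26 genes), splicing regulators 0.918 and 0.908 (38 genes), immediate early genes 0.852 and 0.819 (11 genes) and long noncoding RNAs 0.657 and 0.646 (8 genes). The last 3 of these lists lie below the median of all genes. They also did among introns with similar split reads at both ends, where the list medians were 0.930, 0.858 and 0.810 and the median of all genes was 0.939.

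Of ribosomal protein genes, whose products build the ribosome, 60 of 63 were above the median of all genes in both libraries, and none was below it in both. The lowest were Rps26 (0.862 and 0.943, with only 138 and 122 reads), Rplp1 (0.912 and 0.932), Rpl7l1 (0.934 and 0.928) and Rpl36a (0.939 and 0.937). Rplp2 had no unsplit read among 4071 and 2444, which allows up to 0.0737% and 0.123%, and Rpl29 had 0.997 and 0.996. Many ribosomal protein genes have processed copies elsewhere in the genome, and spliced reads can be shared with them.

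Glycolysis enzymes were above the median of all genes in both libraries in 14 of 15 cases. Tpi1, triosephosphate isomerase, and Eno1, enolase, had 0.995 and 0.996, and 0.996 and 0.995. Ldhb, a lactate dehydrogenase subunit, had 0.937 and 0.906, followed upward by the hexokinases Hk2 (0.949 and 0.947) and Hk1 (0.961 and 0.938) and by Pfkm (0.962 and 0.948), a muscle-type phosphofructokinase. Among translation factors, 17 of 19 were above in both. The cap-binding protein gene Eif4e (0.843 and 0.847) and Eif5 (0.891 and 0.898) were below, and Eif3a (0.952 and 0.943) and Eif6 (0.956 and 0.959) came next. Eif4a1 reached 0.998 and 0.997 and Pabpc1 0.990 and 0.990.

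Pluripotency genes were above the median of all genes in both libraries for 18 of 26 and below it for 6. Pou5f1, the central pluripotency factor also called Oct4, had 61393 split and 793 unsplit reads in library 1 and 41373 and 603 in library 2, a gene value of 0.987 and 0.986. Dnmt3l, a cofactor of DNA methylation, had 0.979 in both. At the other end, Zfp42 (Rex1), a standard marker of the naive state, had 10677 split and 2845 unsplit reads in library 1 and 6991 and 2106 in library 2, values of 0.790 and 0.768. Tet2 (0.824 and 0.854), Prdm14 (0.902 and 0.827) and Fgf4 (0.891 and 0.883) followed.

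Zfp42 was low at 3 of its 4 listed introns, all in the 5′ untranslated region. Its 2169-nt intron (chromosome 8, 43753743 to 43755911) had 0.634 and 0.606, from 2458 split and 1422 unsplit reads in library 1. The 4091-nt and 2281-nt introns had 0.821 and 0.796, and 0.818 and 0.801. Only the 1496-nt intron, at 0.935 and 0.929, was near the median of all introns. The gene had 1618 long reads, none on a retained-intron model. That count is 0 for any gene without an annotated model of this type, and whether Zfp42 has one is not given here. It therefore does not say whether these introns are kept in polyadenylated RNA. No other gene of the list had as many unsplit reads.

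Genes of the splicing machinery were below the median of all genes in both libraries for 23 of 38, and above it for 13. Srsf4 had 539 split and 304 unsplit reads in library 1 and 389 and 252 in library 2, values of 0.639 and 0.607, with 2 of its 5 introns over an exon of Gm12992 on the opposite strand. Prpf38b, a factor of spliceosome activation, had 0.702 and 0.714, Srsf3 had 0.730 and 0.709 at its single listed intron, and Luc7l2, of the family that binds 5′ splice sites, had 0.755 and 0.756. Hnrnpk (0.983 and 0.983) and Srrm2 (0.982 and 0.979) were highest. Son had 0.925 and 0.920 in these control libraries, and 217 long reads.

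Several of these genes had single introns of low value. In Luc7l2, a 1128-nt intron had 0.173 and 0.100, with 28 split reads at its 5′ end in library 1 against a median of 140 at its neighbours. It was matched to the 5′ untranslated region of a model marked for nonsense-mediated decay, which held 277 of the gene's 2076 long reads. In Tra2a, a splicing activator gene that controls its own transcript, a 287-nt intron had 487 split and 456 unsplit reads in library 1 and 315 and 325 in library 2, values of 0.516 and 0.492. Clk4, a kinase of serine- and arginine-rich proteins, had a 537-nt intron at 0.167 and 0.032, from 48 and 31 reads. Tra2a and Clk4 were picked out after their values were seen. Long reads of this group fell on retained-intron models at 15.5%, against 6.24% over all long reads and 1.33% for ribosomal protein genes. All of these shares include genes without an annotated retained-intron model, so they also depend on how many such models are annotated. Single genes weighed on the 15.5% of this group. Rbm5 had 933 of its 1075 long reads on such models and Snrnp70 485 of 815. Ddx5 and Srsf10 had none, which is also the count of any gene without such a model.

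Mat2a, which makes S-adenosylmethionine and has a last intron known to be kept according to its supply, had 8117 split and 1208 unsplit reads in library 1 and 5448 and 819 in library 2, values of 0.870 and 0.869. Its introns ran from 0.755 and 0.729 (422 nt) to 0.948 and 0.935 (91 nt). Ogt, the O-GlcNAc transferase gene, had 0.947 and 0.940 over 20 introns. Introns that the annotation also holds as exon of a longer model are nearly missing from the tables. Of 157515 introns of the listed genes in GENCODE M21, 60558 (38.4%) overlap an exon on the same strand, and 28 such introns were among the 72487. Introns of annotated retained-intron models are thus mostly outside these values.

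Immediate early genes, transcribed within minutes of a stimulus, were below the median of all genes in both libraries for 10 of 11. Egr1 was lowest, with the values given above. Fos had 0.784 and 0.759, from 171 and 137 reads, Dusp6, a phosphatase of the ERK pathway, 0.767 and 0.782, and Spry4, an inhibitor of the same pathway, 0.775 and 0.813. Socs3 was highest at 0.980 and 0.963, and Spry2 had 0.926 and 0.927. Most of them have a single listed intron, and the long reads of the list were few, with a median of 12.01 CPM (counts scaled to the library total).

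Long noncoding RNAs were below the median of all genes in both libraries for 8 of 8. Xist, the RNA that coats the inactive X chromosome, had 34 split and 421 unsplit reads in library 1 and 32 and 319 in library 2, values of 0.075 and 0.091. All 5 of its listed introns were under 0.2 in both libraries, and all lie within a gene on the opposite strand, where Tsix runs against Xist, so reads of the opposite strand cannot be told apart here. Pvt1 had 0.390 and 0.397, Mirg 0.610 and 0.594, and Lncenc1 0.645 and 0.638. Firre (0.845 and 0.849) and Rian (0.834 and 0.852) were highest. Only 2 of 19 hosts of small nucleolar RNAs were listed, Snhg15 at 0.606 and 0.543 and Snhg14 at 0.907 and 0.925.

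**Figure D4:**
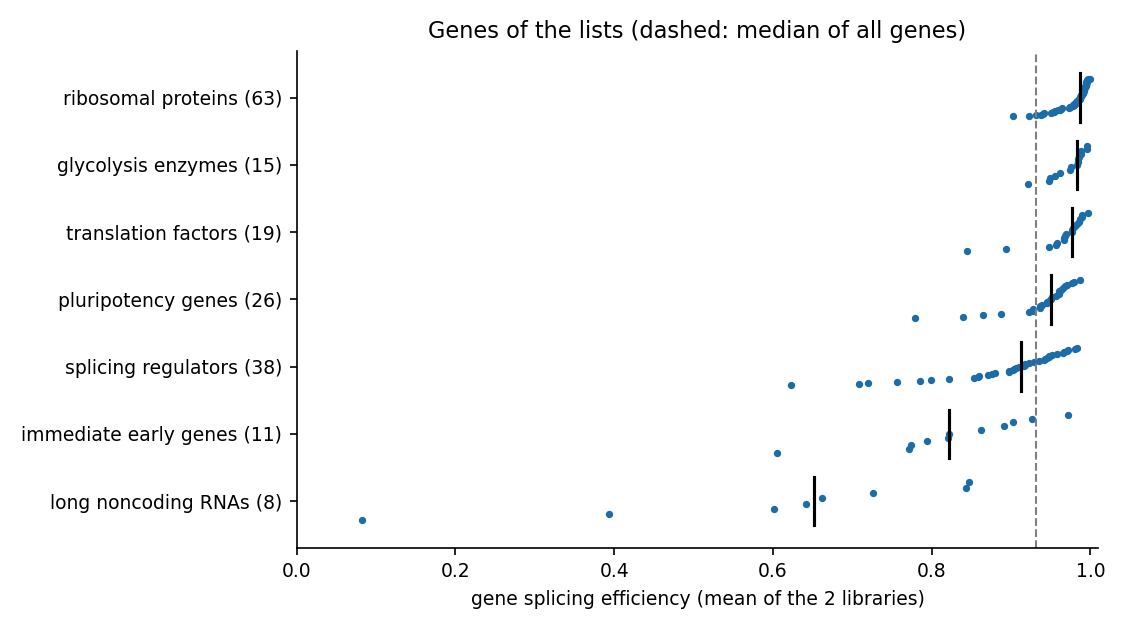
Gene splicing efficiency (mean of the 2 control libraries) for genes of 7 lists, with each dot a gene, black bars the list medians and the dashed line the median of all genes at 0.932; the number of genes is in brackets. Ribosomal protein and glycolysis genes crowd near 1, splicing regulators spread from 0.623 (Srsf4) to 0.983 (Hnrnpk), and Xist lies at 0.083.

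Genes with more polyadenylated RNA had a higher splicing efficiency. Over 6818 genes with at least 20 long reads, in quintiles by CPM, which is not scaled by length, mean splicing efficiency was 0.896 and 0.885 in the lowest quintile (6.49 to 12.01 CPM). It was 0.917 and 0.907 in the middle quintile and 0.948 and 0.942 in the highest (81.8 CPM and above). The means rose at every step in both libraries. The highest minus the lowest quintile was 0.054, and Spearman's correlation across the genes was 0.374, a description over genes that share 1 long-read library. Genes with more reads are also measured with less counting error in both assays. With at least 100 long reads the difference was 0.0376, and with introns of at least 100 junction reads 0.0339.

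In the long reads, 86.9% of reads fell on protein-coding models, 6.24% on retained-intron models (95% Wilson interval 6.21 to 6.27%) and 1.42% on models marked for nonsense-mediated decay. The intervals cover counting error only, and there was no replicate of this library. Transcript models of lincRNAs were only 52 in this table, so long noncoding RNAs are seen in total RNA and hardly here.

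Retained-intron models took a smaller share of long reads in the best spliced genes. Only genes with at least 20 long reads and an annotated retained-intron model were taken, so these shares cannot be set beside the share over all long reads. In quintiles of these genes by splicing efficiency, from lowest to highest, the share was 17.5%, 25.4%, 19.4%, 10.4% and 4.17%, so it did not fall step by step. Medians over genes did, from 8.33% to 6.98%, 4.88%, 3.70% and 2.14%, with a Spearman correlation of −0.230 across 4626 genes. The median long-read level rose over the same quintiles, at 18.8, 19.8, 25.6, 34.1 and 69.1 CPM. Its part in the retained-intron shares was not tested. Single genes weighed on the sums. Lztr1 alone gave 12234 retained-intron reads to the second quintile, which was at 18.8% without it, and Uba2 gave 14597 to the third, which was at 12.9% without it.

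**Figure D5:**
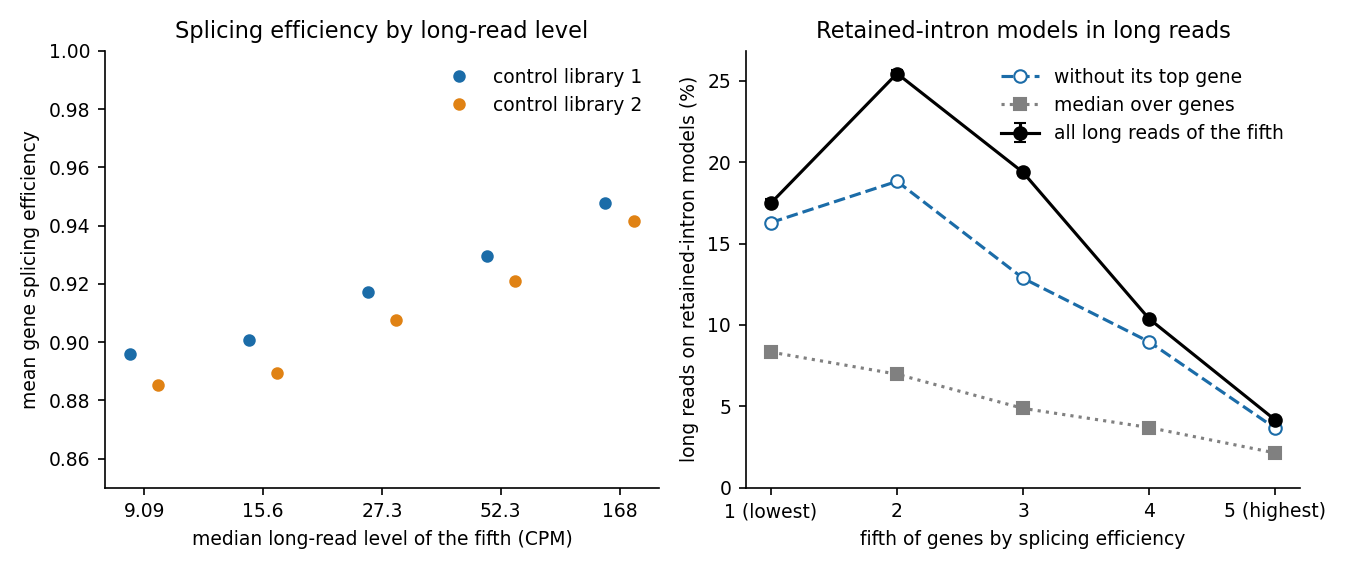
Left, mean gene splicing efficiency in quintiles of genes by long-read level (median CPM of the quintile on the axis), with a circle per control library; means rise from 0.896 and 0.885 to 0.948 and 0.942. Right, share of long reads on retained-intron models in quintiles of genes by splicing efficiency, among genes with such a model and at least 20 long reads. Shown are the sums with 95% Wilson intervals smaller than the symbols, the share without the top gene of each quintile, and the median over genes. The sums peak in the second quintile at 25.4% while the medians fall from 8.33% to 2.14%.

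Genes with the largest retained-intron share in the long reads, among those with at least 200, were Ccdc62, Dct, Fam221b, Pla2g4b, Trim12a, Zan, Trpm2, Dpep2, Lztr1 and Ttc25. Each had more than 99% of its reads on such models. Dct, a pigment cell enzyme, had all 3623 reads on a single model of 3459 nt, and Fam221b had all 3067 on a model of 3913 nt. Of these 10 genes only Lztr1, a substrate adaptor of a ubiquitin ligase, also had introns summed in total RNA, at 0.920 and 0.928 over 9 introns. Its 12231 long reads on a 906-nt model stand beside at most 130 split reads at any of its listed 5′ junctions in library 1. For Pla2g4b, the model shares 25-base words with Gm28042 over 92.8% of its length.

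Likewise, Uba2, a subunit of the SUMO-activating enzyme, had 14590 of its 15126 long reads on a retained-intron model of 1435 nt, while its 11 introns in total RNA had 0.9498 and 0.938. Parp1, a DNA damage sensor, had 4418 of 4990 long reads on a 553-nt retained-intron model and 0.983 and 0.981 in total RNA. Enah, an actin regulator, had 95.4% of long reads on retained-intron models and 0.948 and 0.947. In these genes a high retained-intron share went with well-spliced listed introns in total RNA. Introns of annotated retained-intron models are mostly outside the total RNA values, so both assays need not describe the same introns. Uba2, Parp1 and Enah were picked out after their values were seen.

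Among the 10 genes with the most long reads were Ppia, Gapdh, Rpl41, Ftl1-ps1, Ccnb1ip1, Rplp1, Dppa5a, Eef1a1 and Rps29, from 29154 reads for Ppia, a cyclophilin, to 18949 for Rps29. Of those named, all but Ccnb1ip1 are genes or copies of genes known for abundant messages in many cells or, for Dppa5a, in stem cells. Ccnb1ip1, a meiotic recombination factor gene, had 22108 of its 22194 reads on a 444-nt model. That model shares 25-base words with Rpph1, the RNA of ribonuclease P, over 233 of its bases (52.5%). Its other model with reads, of 1509 nt, had 86. In total RNA its 3 listed introns had at most 161 split reads at the 5′ end in library 1 and a gene value of 0.713 and 0.757.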

How the data were processed

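Control total RNA was described by split and unsplit read counts at both junctions of each intron, which the authors deposited with SPLICE-q's splicing efficiency, a deposited fraction from 0 to 1. A check on the tables showed that this fraction is the split share of the reads of both junctions together, and no listed junction had fewer than 10 reads. Counts per transcript were deposited for the Nanopore library. The submitters' processing notes name GRCm39, SAMtools and minimap2; aligner settings, annotation and strand handling are not given in the sources used here. Intron positions are those of the tables.

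Split and unsplit reads were summed over both junctions, and over the introns of a gene for those listed under 1 gene; 727 introns listed under more than 1 gene were kept for introns only. Lengths, numbers, transcript regions, flanking exon sequence and overlap with other genes came from GENCODE M21 (GRCm38) by transcript and intron number, matched for 72160 introns (99.5%); 1809 (2.50%) had the same position there, so no genome sequence was read by coordinates. Of the planned comparisons, those by 5′ splice site score and by GC content of the intron were left out, and exon GC within 100 nt took the place of the latter, as no genome of the tables' build was used. Nanopore counts were divided by their sum (CPM), without scaling by length; 98.6% of transcript identifiers, with 99.6% of reads, were found. Shares have 95% Wilson intervals (scipy 1.17.1), which cover counting error only. Tables were handled with Python 3.11.15, pandas 2.3.3 and numpy 2.4.6, and figures were drawn with matplotlib 3.10.9. The functions were tested on simulated counts.

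With 1 group of 2 libraries there was no test; values are given per library or as mean ± SD. Introns named are the 10 lowest (at least 200 reads and 20 split reads in both libraries), the 10 farthest below their gene's other introns, and the 3 that differed most between libraries. Genes named are the 10 lowest and 5 highest, up to 4 lowest and 2 highest per list, and the 10 highest in long-read level and in retained-intron share. Introns and genes outside these rules are said to be chosen after their values were seen. The introns, lists and rules were chosen with earlier results of these data known. Alternatives were single junctions, deeper introns, single libraries, and introns with no gene opposite or with similar split reads at both ends; the last 2, exon GC and leaving out genes with over 90% of long reads on retained-intron models were added after seeing the data. One gene of the 10 highest in long-read level and 1 intron are not reported here.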

Additional observations from a re-analysis of the deposited data

How the results depend on the processing

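No paired analysis was possible because there is 1 group of 2 libraries and no comparison between groups. Leaving out a library gives the value of the other, and the retained-intron share of the lowest minus the highest quintile was then 11.8 to 13.7 percentage points (13.3 with both). Counting only 5′ junctions gave a mean of 0.883, a median of 0.946, 4.50% of introns under 0.5, 48.0% at 0.95 or above, −0.0193 for the longest minus the shortest quintile, 0.0253 for first and 0.0117 for last minus other introns, and 0.0486 for the highest minus the lowest long-read level quintile. Counting only 3′ junctions gave a median of 0.944, 3.71% under 0.5, 46.6% at 0.95 or above, 0.0053 for length, 0.0109 for first and −0.0015 for last introns.

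Requiring 100 junction reads gave a mean of 0.922, a median of 0.95, 0.856% under 0.5, 50.1% at 0.95 or above, 0.0068 for first and −0.0030 for last introns, −0.0736 percentage points for the unsplit share at 5′ minus 3′ ends (0.0639 over all introns), 0.945 for the gene median and 0.0339 for the level quintiles. Introns with similar split reads at both ends gave 0.912, 0.943, 0.935%, 45.3%, 0.0018 for length, 0.0206 for first and 0.000188 for last introns, 0.000942 percentage points for the ends, 0.939 for the gene median and 0.0489 for the level quintiles. Leaving out introns with a gene opposite gave 1.94% under 0.5, 0.0097 for first and −0.00072 for last introns. Keeping introns over 100 and up to 20000 nt gave 0.0092 for first introns. The gene median was 0.917 as a mean over introns and 0.946 with at least 1000 reads. The level difference was 0.0376 from 100 long reads up. The retained-intron share over all long reads was 7.95% without the 100 most abundant transcripts and 5.68% with at least 10 reads per transcript. The lowest minus the highest quintile was 14.1 points from 100 long reads up, 6.19 as medians over genes and 7.52 without genes with over 90% on such models. The small differences by length and of last introns, and the overall difference between ends, thus change sign with these choices; the cause was not tested. Depth limits single introns: at 5′ junctions with 10 to 25 reads in the shallower library, counting error alone gives a median difference of 0.0568 between libraries.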

Other observations

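Introns on the X chromosome had a mean splicing efficiency of 0.913 and 0.908 (2344 introns), the highest of any chromosome in both libraries, and the gap between the libraries was smaller there than over all introns (0.898 and 0.888). The other chromosomes ran from 0.836 and 0.821 (chromosome Y, 45 introns) to 0.907 and 0.897 (chromosome 19). The introns were not chosen for this, and no test was made.

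Introns whose upstream exon was in the longest quintile had a mean of 0.885 and 0.874, against 0.906 and 0.896 in the second quintile of upstream exon length. Sirt1, Mtf2 and Srsf11 each held a poorly spliced intron of 437 to 473 nt in a gene whose summed value was 0.885 to 0.905, with 236, 932 and 459 long reads; retained-intron models took 19.9%, 2.90% and 36.4% of these.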
